A study of Arabidopsis thaliana with 8 samples.

Results

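Anthocyanins are the red and purple pigments of plant shoots, and 7 Affymetrix ATH1 probe sets that read their last synthesis steps and a regulator of them are described here, out of 22746 probe sets that are not array controls. The set holds 6 enzyme probe sets (DFR, UGT78D2, UF3GT, AT4G14090, AT5MAT and 265091_s_at, which reads AT1G03495 and AT1G03940) and 1 regulator probe set (245628_at). The members were chosen on their place in the pathway and from their GA4 and water signals on these same arrays, so all GA4-against-water values of the members below are descriptions and carry no test. The platform annotation used here lists 1 gene for 5 of the members and 2 genes for 265091_s_at, named below the AT1G03495/AT1G03940 probe set. It lists no gene for 245628_at. It is called the PAP1 probe set below, after the MYB gene PAP1 (MYB75, AT1G56650), only because the definition of the set assigns it so, and that assignment was not checked.

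Arrays in 2 groups of 4 were compared, GA4 and water. The GA4 group was sprayed with 2 µM GA4, a bioactive gibberellin, and the water group with water, and in both the shoots were taken 1 h later. Every seedling carried ga1-3 in the Ler background, was 8 days old and had grown upright under continuous light at 22 °C on MS agar with 2% sucrose. The ga1-3 mutant is deficient in the enzyme of the first committed step of gibberellin synthesis, all groups here carry it, no wild type was included, and GA1 itself was not analysed here.

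In the anthocyanin pathway, dihydroflavonols made by the general flavonoid enzymes are reduced, oxidised to coloured anthocyanidins, and then decorated with sugars and acyl groups that stabilise the pigment in the vacuole. R2R3 MYB proteins such as PAP1 act with bHLH and WD40 partners to switch on the late genes of this branch. Sucrose in the medium is known to raise PAP1 transcript and pigment in Arabidopsis seedlings, and gibberellin is known to counteract this, with DELLA repressors favouring pigment formation.

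The deposited MAS5 signal is a linear brightness in arbitrary units, scaled to the same trimmed mean on each array (500.04 to 500.05). The brightest 60% of the probe sets that are not controls (13648, with a mean signal of at least 110) were tested, and all 7 members were among them. Signals under 110 are treated below as not reliably above background, since no detection calls were used. In GA4 as in water, replicates 1 and 2 lay away from replicates 3 and 4 along a first principal component with 60.0% of the variance. The 3′ to 5′ actin signal ratio, a measure of RNA integrity, lay between 2.72 and 6.81 for replicates 1 and 2, against 1.5 to 1.76 for replicates 3 and 4. By one of the array's control pairs the GAPDH ratio lay between 2.13 and 5.43 for the first of these sets, against 0.958 to 1.14 for the other, and by another pair between 0.929 and 1.34, against at most 0.982. Of 6 leaf markers 1 was listed, the Rubisco activase gene RCA, at signals of 16464 to 30509 in GA4 and 17008 to 22309 in water. Of 6 root markers 3 were listed, with EXPA7 and EXPA18 below the filter and PYK10, a β-glucosidase gene, at 10594 to 14570 in GA4 and 10601 to 12504 in water. In whole shoots, fewer cells that express a gene and less transcript per cell cannot be told apart.

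The regulator probe set (PAP1) had the largest difference of the 7 in the signals as deposited. Its signals were 39.3, 147, 93.3 and 63.7 in GA4 replicates 1 to 4, against 316, 331, 246 and 210.1 in water replicates 1 to 4. All 4 GA4 arrays lay below all 4 water arrays. The mean log2 signal was 6.26 ± 0.81 in GA4 and 8.08 ± 0.31 in water (SD, n = 4 each), a difference of −1.83 log2 units (SE 0.38 without and 0.29 with the replicate number as a block), or 3.55-fold lower in GA4. However, 3 of the 4 GA4 signals, and the GA4 mean, lay under the filter level of 110, so PAP1 was tested only through its water arrays and the size of its difference is uncertain. With signals under that level set to it, an alternative chosen after seeing the data, the difference was −1.20, or 2.29-fold. The level is a filter cut and not a measured background, so this value is not a lower bound.

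**Figure D1:**
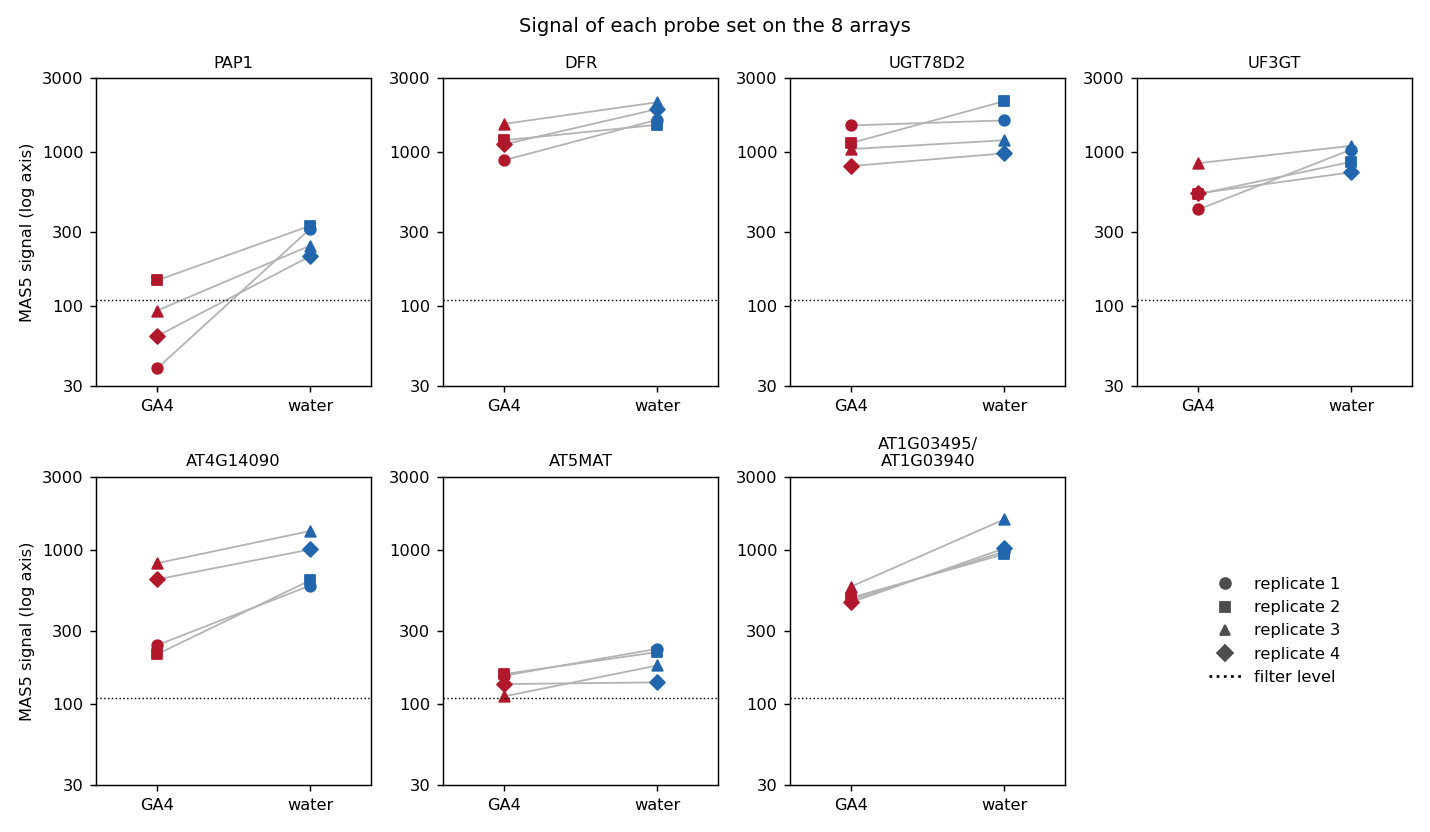
MAS5 signal (log axis) of each of the 7 probe sets, with GA4 arrays on the left and water arrays on the right of each panel; each symbol is 1 array, grey lines join arrays of the same replicate number, and the dotted line is the filter level of 110. Every line runs lower at GA4, the groups are fully apart for PAP1 and AT1G03495/AT1G03940, and 3 of the 4 GA4 points of PAP1 lie under the filter level.

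DFR (AT5G42800) reduces dihydroflavonols to leucoanthocyanidins and is the entry to the branch. It gave signals of 884, 1189.9, 1521 and 1119 in GA4 replicates 1 to 4, against 1616, 1499.5, 2101 and 1898 in water. The groups overlapped by a narrow margin, since GA4 replicate 3 was above water replicate 2. The mean log2 signal was 10.18 ± 0.32 in GA4 and 10.78 ± 0.22 in water (SD, n = 4 each), a difference of −0.61 (SE 0.20 unpaired, 0.12 paired), or 1.52-fold lower in GA4.

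The 3 glycosyltransferases attach sugars, and they differed from each other in the size of their differences. UGT78D2 (AT5G17050) puts glucose on the central ring of anthocyanidins and also of flavonols, so it serves both branches. Its signals were 1486, 1144, 1043 and 810.0 in GA4 replicates 1 to 4, against 1602, 2135, 1190.5 and 979 in water. The groups overlapped widely, and the mean difference of −0.37 (SE 0.27 unpaired, 0.14 paired; 1.29-fold lower in GA4) was the smallest of the 7. Replicate 2 set most of it, at −0.90, while replicates 1, 3 and 4 were at −0.11, −0.19 and −0.27.

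UF3GT (AT5G54060), which adds xylose to that glucose, showed a clearer difference. Its signals were 423, 532.0, 845 and 538 in GA4 replicates 1 to 4, against 1037, 863, 1096 and 738 in water. Only GA4 replicate 3 reached into the water range, above water replicate 4. The mean difference was −0.71 (SE 0.23 unpaired, 0.16 paired), or 1.63-fold lower in GA4.

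AT4G14090 adds a glucose to the A ring of the anthocyanin. It had 242, 212, 825 and 648 in GA4 replicates 1 to 4, against 591, 638, 1335 and 1013.5 in water. The groups overlapped because replicates 3 and 4 were brighter than replicates 1 and 2 in both treatments, so that GA4 replicates 3 and 4 were above water replicates 1 and 2. Within each replicate number the GA4 array was lower, and the mean difference was −1.05, or 2.08-fold lower in GA4. Its SE was 0.46 unpaired and 0.17 paired, the widest gap between the fits among the members.

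Acyltransferases finish the pigment. AT5MAT (AT3G29590), which adds a malonyl group to the glucose on the A ring, lay close to the filter level on all arrays, with 154, 157, 113 and 135 in GA4 replicates 1 to 4 and 229.6, 218, 179 and 139 in water. The mean difference was −0.44 (SE 0.24 unpaired, 0.20 paired), or 1.36-fold lower in GA4. In replicate 4 the arrays were nearly level (a difference of −0.04).

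The AT1G03495/AT1G03940 probe set lists 2 genes, which encode closely related enzymes that add a coumaroyl group to the sugar at the other end of the molecule, and the signal of either gene cannot be told from that of the other. It had 477, 493, 582 and 461 in GA4 replicates 1 to 4, against 981, 945, 1589 and 1029 in water. The groups did not overlap. The mean log2 signal was 8.97 ± 0.15 in GA4 and 10.12 ± 0.35 in water (SD, n = 4 each), a difference of −1.15 (SE 0.20 unpaired, 0.13 paired), or 2.21-fold lower in GA4. Among the members, its difference varied least between replicate numbers, from −1.45 to −0.94.

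Set side by side by replicate number, regulator and enzymes were lower in GA4 in each of the 4 pairs. In replicate 1, PAP1 was at −3.01 and the 6 enzymes averaged −0.86, from −1.29 (UF3GT) to −0.11 (UGT78D2). In replicate 2, PAP1 was at −1.18 and the enzymes averaged −0.82, from −1.59 (AT4G14090) to −0.33 (DFR). In replicate 3 the regulator was at −1.40 and the enzymes averaged −0.64, from −1.45 (AT1G03495/AT1G03940) to −0.19 (UGT78D2). In replicate 4 the regulator was at −1.72 and the enzymes averaged −0.56, from −1.16 (AT1G03495/AT1G03940) to −0.04 (AT5MAT). In replicates 1, 3 and 4 the regulator's difference rests on a GA4 signal under the filter level. With such signals set to that level, PAP1 was at −1.52, −1.18, −1.16 and −0.93 in replicates 1 to 4, a different order from that of the deposited signals, so its order over the pairs is not settled. The median difference of all tested probe sets was −0.02 to 0.02 in the 4 pairs.

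**Figure D2:**
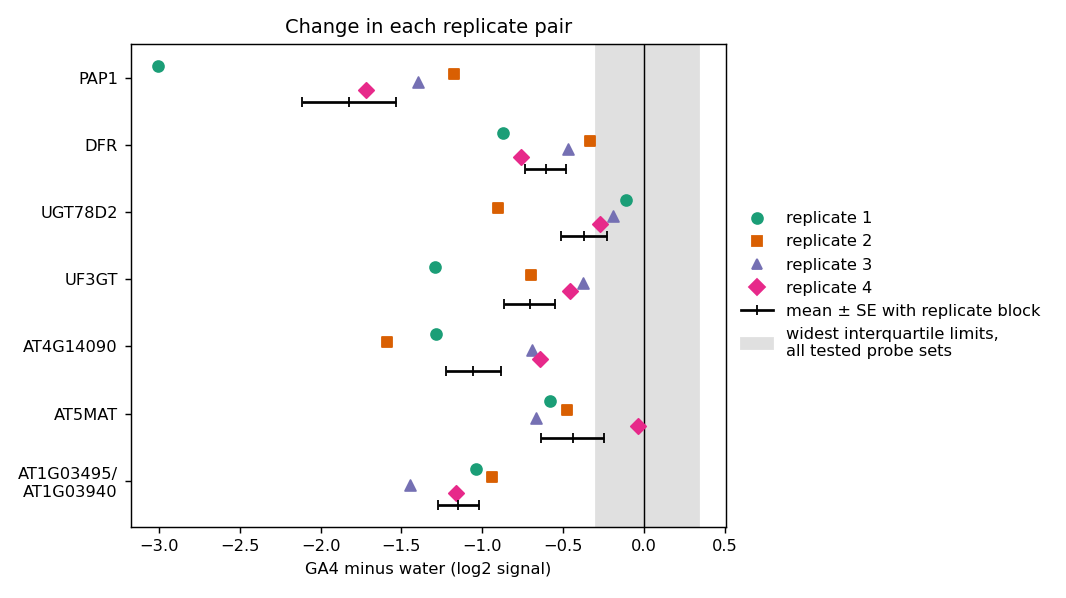
GA4 minus water on the log2 scale for each member (rows) in each of the 4 replicate pairs (symbols); the bar under each row is the mean ± SE of the paired fit, and the grey band spans the lowest lower quartile and highest upper quartile of all tested probe sets over the pairs. All 28 points lie left of 0; the regulator reaches −3.01 in replicate 1, where its GA4 signal is under the filter level, and AT1G03495/AT1G03940 has the tightest points, from −1.45 to −0.94.

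Among all 13648 tested probe sets, 10.0% were lower in GA4 in all 4 pairs (1368 probe sets), and all 7 members were among them. Groups that did not overlap, with GA4 lower, occurred in 1.39% of tested probe sets and in 2 of the 7 members, PAP1 and AT1G03495/AT1G03940. In the unpaired limma fit 0.0147% of tested probe sets passed an adjusted p of 0.05 as lower in GA4, and 0 of the 7 members did. At an unadjusted p under 0.05 in that fit, 241 of the 13648 were lower, with 5 of the 7 members among them. With replicate number as a block in limma, 0.256% passed the adjusted threshold as lower, and 3 of the 7 members did, namely PAP1, AT4G14090 and AT1G03495/AT1G03940. Since this contrast chose the members, nothing is read from these counts. Ranked by the unpaired difference from the lowest of the 13648, AT1G03495/AT1G03940 number 41, AT4G14090 number 54, UF3GT number 191, DFR number 289, AT5MAT number 625 and UGT78D2 number 934. PAP1 is given no rank, since its GA4 mean lay under the filter level. The members' median difference was −0.71, beside 0.01 over all tested probe sets. Without replicate 1, or without replicate 2, the paired limma fit passed 1 member as lower, AT1G03495/AT1G03940, beside 0.103% and 0.0586% of tested probe sets. Without replicate 3, or without replicate 4, it passed the same 3 members as with all pairs, beside 0.381% and 0.286%. With the 2 replicate sets as the block in place of the number it passed AT4G14090 and AT1G03495/AT1G03940, beside 0.227%. Nothing is read from these member calls either, since the same contrast chose the members. PAP1 was moreover tested only through its water arrays.

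With treatment in the model, members differed in level between replicates 1 and 2 and replicates 3 and 4, with higher and lower members. AT4G14090 was lower on replicates 1 and 2 by a log2 difference of −1.31 (SE 0.18, limma with treatment in the model, adjusted p = 2.62e-04 over all tested probe sets), or 2.47-fold. The mean log2 signal was 7.82 on GA4 replicates 1 and 2 and 9.51 on GA4 replicates 3 and 4, and 9.26 and 10.18 on the water arrays of the same replicates. Its level difference was thus larger in GA4 (−1.69) than in water (−0.92). UGT78D2 was higher on replicates 1 and 2 by 0.64 (SE 0.16, limma adjusted p = 0.00734), with 10.35 and 9.84 in GA4 and 10.85 and 10.08 in water. The replicate sets did not overlap within either treatment for these probe sets and for AT5MAT, 3 of 7 members, beside 46.8% of tested probe sets. The members past the threshold were 2 of 7 members, beside 41.4% of all tested probe sets past the same threshold, so the members were not called more often than other probe sets.

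The other 5 members did not pass this test. DFR was at −0.35 (SE 0.15, limma adjusted p = 0.0698), AT1G03495/AT1G03940 at −0.25 (SE 0.16, adjusted p = 0.232 in the same limma fit) and UF3GT at −0.22 (SE 0.20, limma adjusted p = 0.403). AT5MAT was at 0.42 (SE 0.19, limma adjusted p = 0.0883) and PAP1 at 0.24 (SE 0.35, limma adjusted p = 0.599). Over all tested probe sets the median was 0.14, and 3600 passed as higher on replicates 1 and 2 and 2048 as lower. After quantile normalization that median was 0.02, with 2341 higher and 2315 lower. UGT78D2 was then at 0.69 and AT4G14090 at −1.42, both still past the threshold, AT5MAT was at 0.04, and PAP1 changed sign to −0.20. Over 13 alternatives of this test UGT78D2 and AT4G14090 passed in all 13 (limma adjusted p of 0.00446 to 0.0308 and 2.15e-04 to 0.00152). Without GA4 replicate 1, PAP1 was at 0.68 and passed (limma adjusted p = 0.0265, with 0.0265 to 0.851 over its 12 alternatives), and without GA4 replicate 2 it was at −0.084. DFR passed without GA4 replicate 2 (limma adjusted p = 0.0357, with 0.0357 to 0.235 over 13 alternatives), and AT5MAT without the mean-variance trend (limma adjusted p = 0.0385, with 0.0385 to 0.892 over 12). The actin ratios given above differ between the same replicate sets, and their part in these level differences was not tested.

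**Figure D3:**
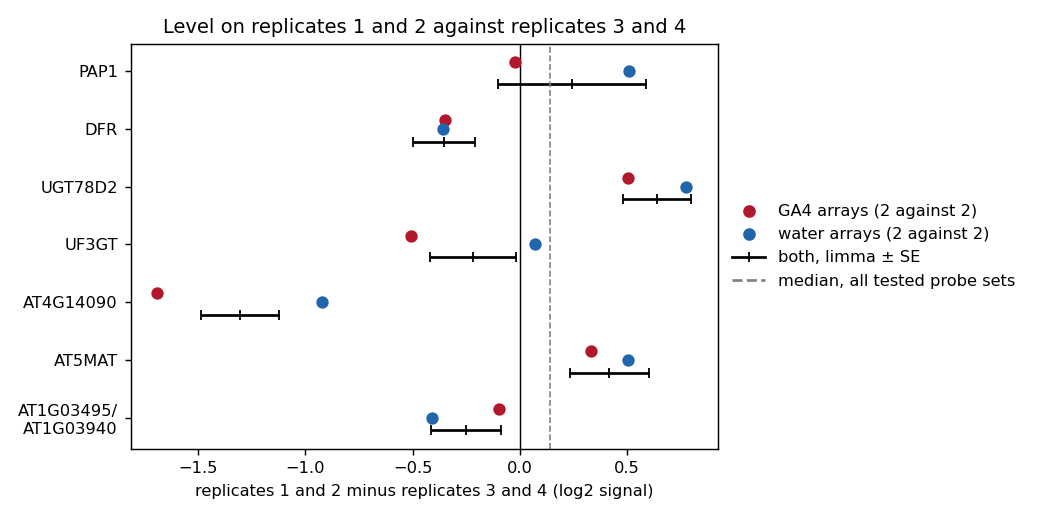
Log2 signal on replicates 1 and 2 minus that on replicates 3 and 4 for each member, separately for the GA4 arrays (red) and the water arrays (blue); the bar is the limma estimate ± SE over both, and the dashed line is the median of all tested probe sets (0.14). AT4G14090 lies far to the left in both treatments (−1.69 in GA4 and −0.92 in water) and UGT78D2 to the right in both (0.50 and 0.78).

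The difference between GA4 and water was also compared between these replicate sets. For AT4G14090 it was −1.44 on replicates 1 and 2 and −0.67 on replicates 3 and 4. For PAP1 it was −2.09 and −1.56, with 3 of the 4 GA4 signals under the filter level. UF3GT was likewise nearer to 0 on replicates 3 and 4 (−0.42). DFR was nearly alike, at −0.60 and −0.61, while AT1G03495/AT1G03940 went the other way, at −0.99 and −1.30. A limma interaction of treatment and replicate set passed for 0% of the tested probe sets and for 0 of the 7 members (957 probe sets and 1 member at an unadjusted p under 0.05, smallest adjusted p = 0.294). With 2 arrays per cell, this does not show that the sets responded alike. On GA4 replicates 1 and 2 the actin ratio was 6.81 and 4.48, against 5.07 and 2.72 on their water arrays. The part of this ratio in the size of the members' differences there was not tested.

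Of 48 other genes of the flavonoid pathway and its regulators, 5 had a probe set that lists them alone, 3 of these were tested, and 43 were not analysed here, among them all 22 regulators. None of the 3 passed for GA4 against water in limma, unpaired or paired (0 of 3 in each fit, and 0 of 3 at an unadjusted p under 0.05). CHIL, a chalcone isomerase-like protein of the early pathway, had 583, 337, 417 and 447 in GA4 replicates 1 to 4, against 497, 542, 491 and 414 in water. Its groups overlapped fully, with a difference of −0.14 (SE 0.20, limma adjusted p = 1.00 unpaired and 0.751 paired) and a lower GA4 array in 2 of 4 pairs.

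UGT78D1 (AT1G30530), which puts rhamnose on flavonols, had 992, 673, 439 and 363 in GA4 replicates 1 to 4, against 919, 679.7, 379 and 327 in water. Here GA4 and water were close within each replicate number (difference 0.11, SE 0.39 unpaired, limma adjusted p = 1.00 unpaired and 0.735 paired), but the signal was 1.10 log2 units higher on replicates 1 and 2 (limma adjusted p = 4.36e-04). AT1G06000 (UGT89C1), which adds a further rhamnose to flavonols, had 392, 513, 257 and 281 in GA4 replicates 1 to 4, against 500.0, 531, 453 and 291 in water. It was lower in GA4 in 4 of 4 pairs, by −0.82 in replicate 3 and −0.35 to −0.05 in the others, with a mean of −0.32 (SE 0.27, limma adjusted p = 1.00 unpaired and 0.465 paired). It was also higher on replicates 1 and 2, by 0.62 (limma adjusted p = 0.0124), the same direction as UGT78D1 and UGT78D2. The median GA4 difference of the 3 genes was −0.14, beside 0.01 over all tested probe sets.

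UGT78D3, an arabinosyltransferase of flavonols that is separated from UGT78D2 by 1 gene (AT5G17040) in the TAIR10.1 gene table, was not tested. Its signals were 1.93 to 16.4 in GA4 and 2.97 to 6.23 in water, all far under the filter level, while its neighbour UGT78D2 was above that level on all 8 arrays. BAN, the reductase that leads to proanthocyanidins of the seed coat, likewise gave 4.20 to 8.68 in GA4 and 3.72 to 7.18 in water.

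Genes with the most similar pattern were sought among 7329 other tested probe sets with 1 listed gene, by the root-mean-square distance of their centred log2 profile over the 8 arrays to the mean centred profile of the 6 enzymes. That mean ran from −0.53 to −0.05 on the GA4 arrays and from 0.19 to 0.59 on the water arrays, a separation that follows from how the enzymes were chosen and is given as a description. The closest were AT3G52500, of the aspartyl protease family (distance 0.13 log2 units), AT1G08040 (0.16), AT4G39560 (0.17), AT1G31550, of the GDSL lipase family (0.17), AT3G55350 (0.18) and AT4G39900 (0.18). The median distance of the 7329 was 0.53. AT3G52500 had 1599, 1752, 1978 and 1817 in GA4 replicates 1 to 4, against 2858, 2506, 2791 and 2651 in water, with no overlap. All 6 were lower in GA4 in 4 of 4 pairs, by −1.03 to −0.44 on average, a direction fixed by choosing them for their likeness to the enzyme mean. The GA4 signals of AT3G55350 (70.8 to 102) were under the filter level. So were those of AT4G39560 in GA4 replicate 4 (107) and of AT1G31550 in GA4 replicate 1 (108).

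Measured the same way, UF3GT (0.16) and DFR (0.17) were as close to the enzyme mean as these genes, AT1G03495/AT1G03940 was at 0.26 and AT5MAT at 0.36. UGT78D2 (0.47), AT4G14090 (0.61) and PAP1 (0.76, from signals partly under the filter level) were farther from it. Only 2 candidate genes lay closer to the enzyme mean than UF3GT, against 4961 for AT4G14090 and 6444 for PAP1. The enzymes contribute to the mean they are compared with, and the distances depend on the scale: 3 of the 6 nearest genes were also among the nearest with each profile divided by its own SD, and 2 of 6 after quantile normalization.

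**Figure D4:**
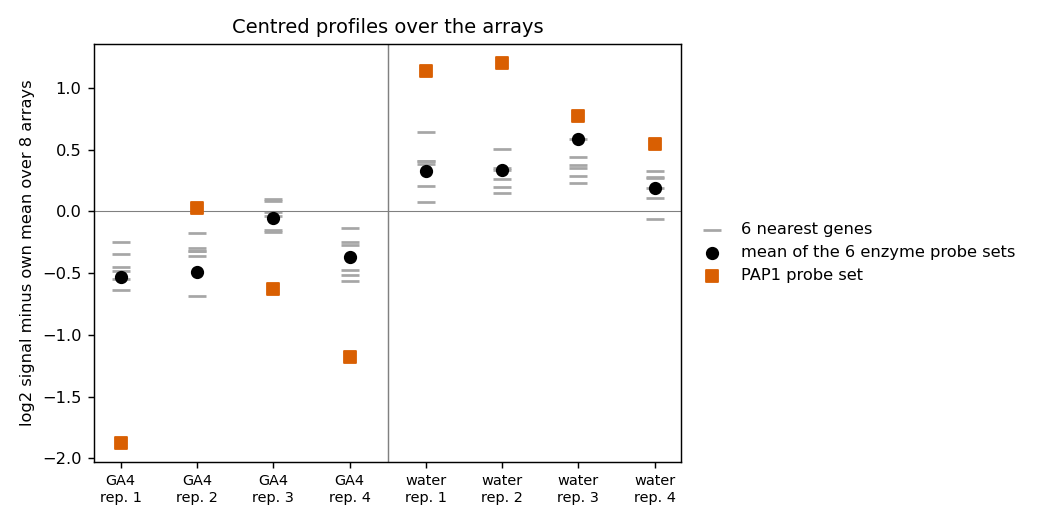
Log2 signal minus its own mean over the 8 arrays, for the mean of the 6 enzyme probe sets (black circles), the PAP1 probe set (orange squares) and the 6 genes nearest to the enzyme mean (grey dashes), with GA4 arrays left and water arrays right of the vertical line. The enzyme mean is below 0 on the 4 GA4 arrays and above 0 on the 4 water arrays, while PAP1 spreads from −1.87 to 0.03 over the GA4 arrays.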

How the data were processed

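The deposited values are linear MAS5 signal intensities, 1 for each probe set on each array. MAS5 is named without a version per the submitters' processing notes, and its other settings are not given in the sources used here. From these deposited intensities, signals under 1 (707 of 182480 values) were set to 1 and log2 was taken, with no rescaling. The 64 control probe sets were left out, and the 60% with the highest mean log2 signal were tested. Precision is limited by the number of arrays (4 per group). Probe sets were named by the platform annotation, updated through the TAIR10.1 gene table (13513 probe sets with 1 gene, 503 with several, 8730 with none listed). No position or sequence is printed.

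Differences between GA4 and water were tested with limma 3.58.1 in R 4.3.3 (lmFit, eBayes with a mean-variance trend, 2-sided, Benjamini-Hochberg over 13648 probe sets, threshold 0.05), unpaired in the first place and with the replicate number as a block as an alternative. Same-numbered arrays deviated together from their group means (correlation 0.616 to 0.685 in all 4 pairs, and 8 of 8 arrays matched their own number best across treatments). Arrays of different number within a replicate set also did, less closely (0.367 to 0.599). The labels do not say what a number marks, and p-values measure the spread between these samples. Replicates 1 and 2 were compared with 3 and 4 with treatment in the model. The code was tested on simulated data. Named genes were the 7 members, the pathway genes with a probe set of their own and the 6 nearest profiles. Members and lists were chosen with earlier results of these data known. Alternatives were quantile normalization, other filters, a pseudocount of 32, no trend, single replicate sets, and arrays or pairs left out.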

Additional observations from a re-analysis of the deposited data

Results flagged for a closer look

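Among 30 groups of 4 values (GA4 signals, water signals and pair differences of the 7 members and 3 tested pathway genes) 1 held a value far from the others. The water replicate 3 signal of the AT1G03495/AT1G03940 probe set was 10.63 on the log2 scale, with the other water arrays at 9.88, 9.94 and 10.01, and its gap took 0.837 of the group's range. About 1 in 20 such groups is expected to hold one. Without that array the GA4 difference of the AT1G03495/AT1G03940 probe set was −0.97, beside −1.15 with it.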

How the results depend on the processing

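The GA4 difference of each member kept its sign in all of its 21 or 22 alternatives (152 in all). It moved by less than the spread between replicates in 151 of them, and by more for PAP1 with signals under the filter level set to it (−1.20). With all arrays kept, the blocks, the filters and the trend setting cannot change this difference, and that floor changed only PAP1. The spread used was the residual SD of the unpaired fit. It was 0.80 for AT4G14090, and for UGT78D2 0.43, wider than its difference of −0.37. The count of 151 is therefore no measure of stability. All 7 members stayed lower in GA4 in every pair with quantile normalization, with log2(signal + 32) and with that floor. The number of probe sets called for GA4 against water in the unpaired fit was 2. It was 40 with the replicate block, 32 with the replicate set as a block, 9 on replicates 3 and 4 alone, and 1 on replicates 1 and 2 alone, without a filter or with the stricter filter. Leaving out 1 array gave 1 call throughout; leaving out 1 pair with the replicate block gave 8 to 53 calls (14 without pair 1, 8 without pair 2, 53 and 43 without pairs 3 and 4). The calls of the interaction were 0 and became 10 without GA4 replicate 2, with 0 members among them. The median of the 3 pathway genes (−0.14) was 0.036 without pair 2 in the paired fit and −0.28 to 0.036 over all arrays or pairs left out. For the level between replicate sets, PAP1 reversed with quantile normalization (−0.20) and without GA4 replicate 2 (−0.084), against 0.68 without GA4 replicate 1. The stricter filter dropped PAP1 and AT5MAT. The cause of these changes was not tested. Signals near the filter level limit PAP1 and AT5MAT most. The block changed no call of the 3 pathway genes.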
